A study of Mus musculus with 6 samples.

Results

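The genes of mouse prostatic secretion Pbsn, Tgm4, Msmb, 9530053A07Rik and Pate9, were followed across prostates of mice with experimental autoimmune prostatitis (EAP), in which an immune response against the gland inflames it. They are 5 of the 18697 genes of the count table, and all 5 passed the low count filter that left 13753 genes for testing. The genes were picked by symbol, as secretory genes said to rise together in the same libraries and to mark the dorsal, lateral and anterior lobes. Since that choice rested on their levels in these libraries, the levels are given as a description with no test. One group of EAP mice had received VUF11207, an agonist of the atypical chemokine receptor CXCR7, intraperitoneally at 5 mg/kg/day for 14 days. The control group of EAP mice had received the vehicle DMSO by the same route for the same time. Each group held 3 RNA sequencing libraries, and no group without EAP was analysed here. For strain, age, the lobes dissected and pooling of animals, nothing is given in the sources used here. Of the vehicle libraries, 2 were numbered 2 and 3, and the third stood in a column that could be tied to the group but to no single sample, so it has no replicate number from the labels and is called the unnumbered DMSO library.

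The rodent prostate is made of paired lobes whose luminal cells secrete different proteins into the seminal fluid, under control of androgens. Pbsn encodes probasin, a secreted member of the lipocalin family whose promoter is widely used to drive transgenes in mouse prostate epithelium. Tgm4 encodes the prostate transglutaminase, which cross-links seminal vesicle proteins into the copulatory plug, and RefSeq lists Eapa1, an EAP antigen name, among its synonyms. Msmb encodes beta-microseminoprotein, an abundant small protein of prostatic fluid. Pate9 belongs to the PATE family of small cysteine-rich proteins of the male reproductive tract. 9530053A07Rik is little characterised, and RefSeq gives it the synonym FCGBP, the name of a mucin-like secreted protein.

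The genes lie on 4 chromosomes of mm10, with the coordinates of GENCODE release M21. Pbsn is on the minus strand of chromosome X from 77837901 to 77853623, and Msmb on the plus strand of chromosome 14 from 32142023 to 32158370. 9530053A07Rik is on the plus strand of chromosome 7 from 28129466 to 28164811, with 20 exons in its longest transcript. Tgm4, on the plus strand from 123034726 to 123067561, and Pate9, on the minus strand from 36532397 to 36541963 (named Gm5615 in that annotation), share chromosome 9 but lie far apart on it. The 250 bases before the RefSeq start (GRCm38.p6) were at hand for 4 of the 5 genes, and are shown because these 4 turned out to move together while coming from separate loci. Capitals mark TATAAA, searched on the strand shown, and the steroid receptor core TGTTCT or its reverse complement AGAACA. The window of Pbsn is chrX:77853501-77853750 and that of Pate9 is chr9:36541964-36542213, both read on the minus strand. The windows of Tgm4 and 9530053A07Rik are chr9:123034491-123034740 and chr7:28129216-28129465, on the plus strand.
Pbsn: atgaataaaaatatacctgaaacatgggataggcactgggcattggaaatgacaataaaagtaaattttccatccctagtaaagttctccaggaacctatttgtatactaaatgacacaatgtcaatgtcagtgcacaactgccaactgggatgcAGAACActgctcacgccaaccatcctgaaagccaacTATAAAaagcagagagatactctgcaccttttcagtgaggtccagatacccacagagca
Tgm4: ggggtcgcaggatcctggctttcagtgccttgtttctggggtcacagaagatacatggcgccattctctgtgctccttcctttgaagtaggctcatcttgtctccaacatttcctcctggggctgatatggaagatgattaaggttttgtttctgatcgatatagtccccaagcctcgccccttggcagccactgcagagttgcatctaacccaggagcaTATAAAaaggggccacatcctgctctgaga
9530053A07Rik: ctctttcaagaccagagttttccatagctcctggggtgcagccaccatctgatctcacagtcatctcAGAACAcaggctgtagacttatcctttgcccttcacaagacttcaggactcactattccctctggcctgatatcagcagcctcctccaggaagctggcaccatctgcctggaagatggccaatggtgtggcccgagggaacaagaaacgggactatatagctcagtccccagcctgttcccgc
Pate9: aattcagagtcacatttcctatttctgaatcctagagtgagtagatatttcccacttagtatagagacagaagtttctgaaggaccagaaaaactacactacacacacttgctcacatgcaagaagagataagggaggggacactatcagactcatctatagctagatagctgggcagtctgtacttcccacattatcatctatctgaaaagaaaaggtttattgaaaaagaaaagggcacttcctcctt

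A TATAAA stood 59 bases before the RefSeq start of Pbsn and 30 bases before that of Tgm4, and none was found for 9530053A07Rik or Pate9. GENCODE starts Pbsn 123 bases further upstream and Tgm4 15 bases further upstream, so these distances depend on the annotation. Of 32851 windows of the same length in the RefSeq table, 7.59% held TATAAA. The core AGAACA was found 95 bases before the start of Pbsn and 183 bases before that of 9530053A07Rik, and 16.1% of all windows held this core on either strand. The forkhead core TGTTTAC, searched on both strands, was in none of the 4 and in 3.17% of all. No sequence letters searched here were common to all 4 genes.

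Total counts ran from 20308018 to 33368058 per library. The 12 genes of the seminal vesicle list took from 0.750% to 66.6% of the counts, with most in DMSO replicate 2 and VUF11207 replicate 1 (28.7%). Levels are therefore given as CPM, counts per 1000000 counts of the library after TMM normalisation, which reduces the effect of a few very abundant genes. The 5 secretory genes together took 15.1% of the counts of the unnumbered DMSO library and 8.55% of those of VUF11207 replicate 2. In the other 4 libraries they took from 0.242% to 1.71%. The summed luminal epithelium list (Krt8, Krt18 and 9 more genes) varied far less, from 2843 to 3563 CPM. Single genes of it went different ways. Ehf ran from 262 to 592 CPM and was highest in the unnumbered DMSO library. Elf3 (7.66 to 49.1 CPM) and Cldn3 (169 to 384 CPM), named after their values were seen, were lowest there. In bulk tissue, fewer cells of a type and less RNA per cell cannot be told apart.

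Of the 5 genes, 4 rose and fell together between libraries, and Msmb followed another order. Pbsn was at 17695, 681 and 769 CPM in the unnumbered DMSO library and DMSO replicates 2 and 3. With VUF11207 it was at 623, 6739 and 2652 CPM in replicates 1, 2 and 3. The highest library was thus a vehicle library and the lowest a treated one, and the groups overlapped. Tgm4 was at 16902, 828 and 955 CPM in the vehicle libraries in that order, and at 624, 8518 and 1646 CPM with VUF11207. It was the same unnumbered DMSO library and VUF11207 replicate 2 that stood high.

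9530053A07Rik, the most abundant of the genes, was at 75055, 3752 and 5521 CPM with DMSO and at 3747, 50996 and 7448 CPM with VUF11207. It alone held 9.99% of all counts of the unnumbered DMSO library and 6.35% of those of VUF11207 replicate 2 (Wilson 95% intervals from 9.97% to 10.0004% and from 6.345% to 6.36%, covering counting error only). Pate9 was at 4021, 147 and 93.8 CPM with DMSO and at 72.6, 1489 and 317 CPM with VUF11207. All 4 genes shared the highest 3 libraries in the same order, the unnumbered DMSO library, then VUF11207 replicate 2, then VUF11207 replicate 3, and the lowest library, VUF11207 replicate 1. Between the highest and the lowest library the levels differed 28.4-fold for Pbsn, 27.1-fold for Tgm4, 20.03-fold for 9530053A07Rik and 55.4-fold for Pate9.

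Msmb went against the statement that the genes rise together. It was at 40.6, 284 and 361 CPM with DMSO and at 472, 887 and 2986 CPM with VUF11207. Its lowest level was in the unnumbered DMSO library, where the other 4 genes had their highest, and its highest in VUF11207 replicate 3. Those extremes were 73.6-fold apart. Across the 6 libraries the log2 CPM of Pbsn, Tgm4, 9530053A07Rik and Pate9 correlated with Pearson r of 0.964 to 0.994 for each pair, while Msmb had r of -0.41 to -0.32 with each of them. These correlations are descriptions over 6 libraries that also differ in their tissue content, and they use the values by which the genes were chosen.

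**Figure D1:**
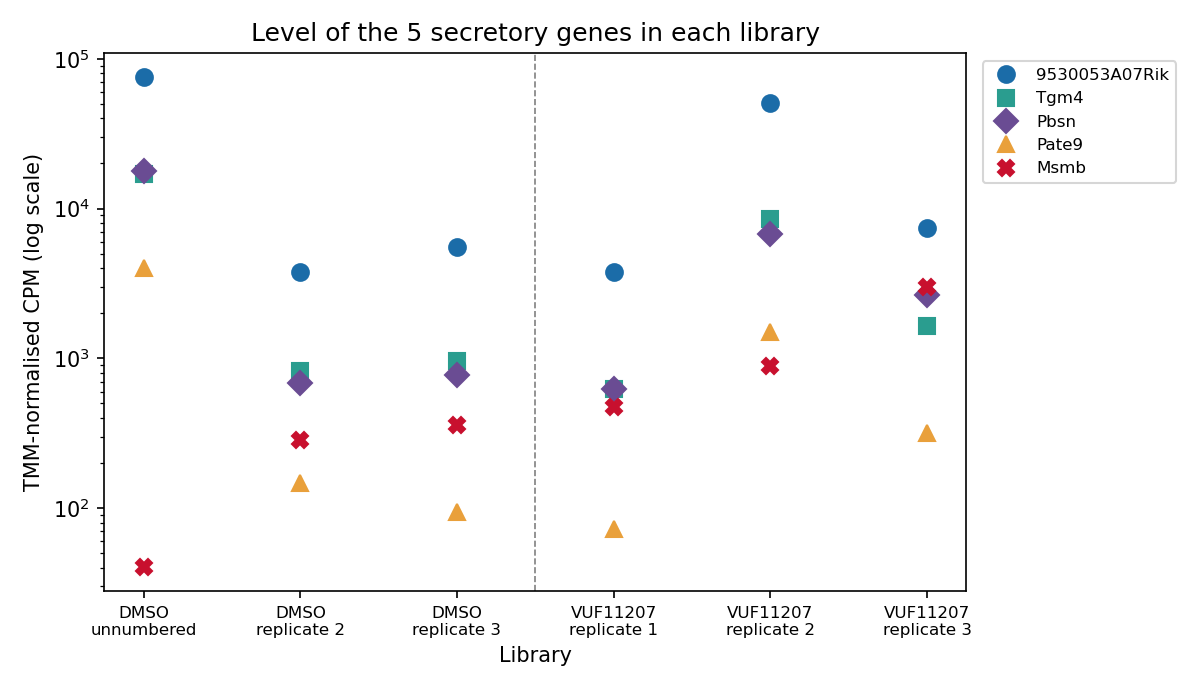
TMM-normalised CPM (log axis) of the 5 genes in each of the 6 libraries, 1 point per gene and library, with vehicle left and VUF11207 right of the dashed line. Pbsn, Tgm4, 9530053A07Rik and Pate9 were highest in the unnumbered DMSO library and next in VUF11207 replicate 2, whereas Msmb was lowest in the unnumbered DMSO library (40.6 CPM) and highest in VUF11207 replicate 3 (2986 CPM).

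Ratios of counts within a library do not depend on how libraries are scaled, and they showed the same split. For each count of Pbsn there were 0.955, 1.22 and 1.24 counts of Tgm4 in the vehicle libraries and 1.002, 1.26 and 0.621 with VUF11207, a range of 2.04-fold. The ratio of 9530053A07Rik to Pbsn ranged 2.69-fold, from 2.81 in VUF11207 replicate 3 to 7.57 in VUF11207 replicate 2. That of Pate9 to Pbsn ranged 1.95-fold, from 0.116 to 0.227. Relative to Pbsn, the counts of Tgm4, 9530053A07Rik and Pate9 thus stayed within 3-fold ranges, while the level of each of these genes moved at least 20-fold. The ratio of Msmb to Pbsn was 0.00229, 0.417 and 0.469 with DMSO and 0.757, 0.132 and 1.13 with VUF11207, a range of 491-fold. Msmb was scarce beside probasin in the unnumbered DMSO library and exceeded it in counts in VUF11207 replicate 3 only.

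**Figure D2:**
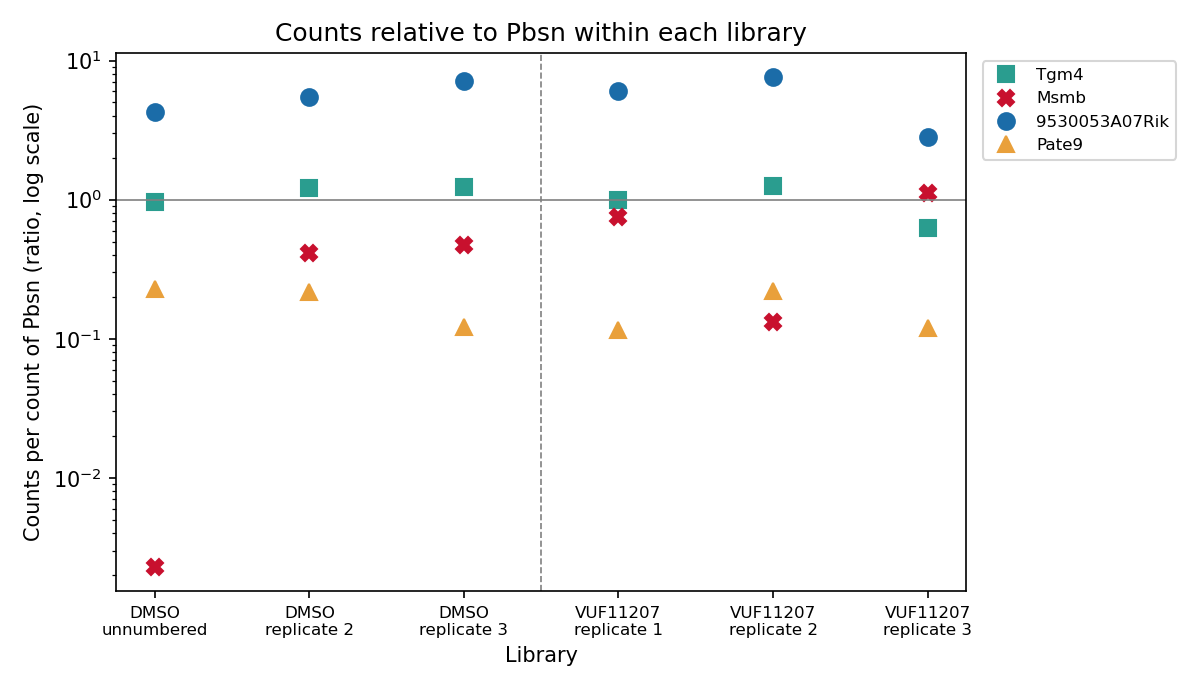
Counts of Tgm4, 9530053A07Rik, Pate9 and Msmb per count of Pbsn (log axis) within each library, 1 point per gene and library, vehicle left and VUF11207 right of the dashed line, with a grey line at a ratio of 1. Tgm4, 9530053A07Rik and Pate9 stayed within 3-fold ranges, and Msmb ran from 0.00229 to 1.13.

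Divided by the exon length of GENCODE M21 (0.902 kb for Pbsn, 4.555 kb for Tgm4, 11.843 kb for 9530053A07Rik, 2.348 kb for Pate9 and 0.589 kb for Msmb), the order of levels changed. Probasin was the highest of the 4 co-varying genes in every library, followed by 9530053A07Rik, Tgm4 and Pate9. In the unnumbered DMSO library these levels were 19617, 6337, 3711 and 1713 CPM per kb. Msmb, at 68.9 CPM per kb, was the lowest of the 5 there. In VUF11207 replicates 1 and 3 Msmb was the highest of the 5, at 801 and 5070 CPM per kb. Pbsn was at 691 and 2940 CPM per kb there. The lengths sum all annotated exons of a gene and the annotation used for counting is not given, so levels per kb are approximate.

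The comparison of VUF11207 with vehicle asks how activation of CXCR7 bears on the inflamed prostate, and none of the 5 genes passed it. Pbsn averaged 3338 CPM ± 3115 with VUF11207 and 6382 CPM ± 9798 with DMSO (SD, n = 3 each). Its log2 fold change was -0.93 ± 1.46 (SE). For Tgm4 the log2 fold change was -0.79 ± 1.46, for 9530053A07Rik -0.44 ± 1.55 and for Pate9 -1.18 ± 1.62 (SE). The 95% interval of Pbsn ran from -4.40 to 2.53, so the libraries leave room for a large change in either direction. The adjusted p was 0.99991 for each of these 4 genes and for Msmb (edgeR quasi-likelihood, Benjamini-Hochberg over all genes). Without the unnumbered DMSO library all 4 values turned positive, at 2.20 for Pbsn, 2.01 for Tgm4, 2.16 for 9530053A07Rik and 2.38 for Pate9. Without VUF11207 replicate 2 they were -1.96, -2.45, -2.32 and -2.86, and without VUF11207 replicate 1 that of 9530053A07Rik was 0.11. A direction of these genes with treatment thus rested on single libraries.

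Msmb was the only one of the 5 genes whose groups did not overlap. It averaged 1448 CPM ± 1348 with VUF11207 and 228 CPM ± 167 with DMSO (SD, n = 3 each). The log2 fold change was 2.66 ± 0.99 (SE), with a 95% interval from 0.30 to 5.03. Its unadjusted edgeR p was 0.0324, where 196 genes (1.43%) had an unadjusted p under 0.05, 131 of them (0.953% of the genes tested) with VUF11207 higher. Of the 13753 genes tested, edgeR called 0 (0%) at an adjusted p under 0.05. DESeq2 called 4 of 17291 genes (0.0231%), none of them among the 5. Groups were apart in TMM CPM with VUF11207 higher for 3.05% of the genes tested and lower for 2.52%. With 1 library left out, the value of Msmb ran from 1.57 without VUF11207 replicate 3 to 3.16 without DMSO replicate 3. As its groups did not overlap, its sign could hardly change in these fits, so the kept sign adds no support. Of the 5 genes, 1 had a positive log2 fold change and their median was -0.79, beside 44.7% positive and a median of -0.04 over all genes tested.

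**Figure D3:**
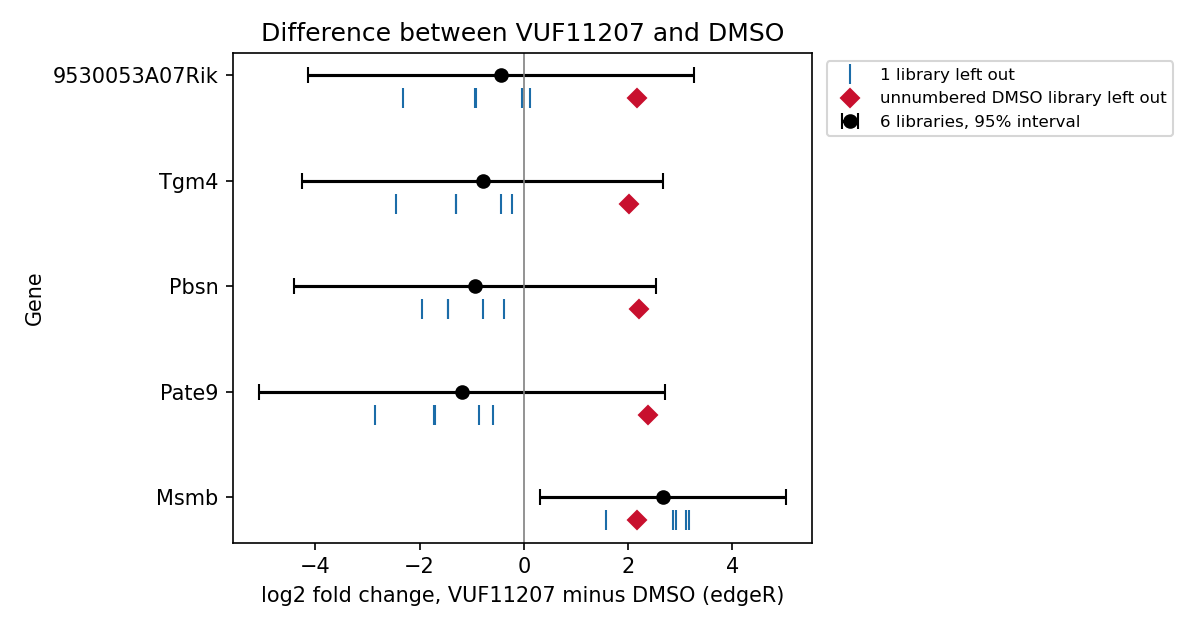
Log2 fold change (VUF11207 minus DMSO, edgeR) of the 5 genes, with black points and 95% intervals from all 6 libraries, blue ticks for fits with 1 library left out and red diamonds for fits without the unnumbered DMSO library. The red diamonds of Pbsn, Tgm4, 9530053A07Rik and Pate9 lie at 2.01 to 2.38, on the other side of 0 from the black points. The values of Msmb stay positive, which follows from its groups not overlapping.

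Other gene groups moved with these patterns, and their part in them was not tested. Ventral lobe secretions had groups apart in their sum, from 6462 to 100595 CPM with DMSO and from 102550 to 240388 CPM with VUF11207, so the nearest libraries of the groups lay close together. Of the 7 genes 0 were called and 2, Apof and Azgp1, had groups apart, while the most abundant, Sbp, Spink1 and Sbpl, overlapped. Over all genes tested, 3.05% had groups apart with VUF11207 higher. Sbp, the spermine-binding protein of the ventral lobe, was at 3710, 50372 and 66858 CPM with DMSO and at 66225, 64894 and 143193 CPM with VUF11207. As with Msmb, the unnumbered DMSO library was lowest and VUF11207 replicate 3 highest. Neutrophil markers summed to 4.10 to 14.1 CPM with DMSO and 0.473 to 3.32 CPM with VUF11207, and most of each sum with DMSO came from S100a8 and S100a9, which encode the subunits of calprotectin. Of the 7 neutrophil genes 3 passed the count filter, 0 were called, S100a8 and S100a9 had groups apart, and the receptor gene Csf3r overlapped. Over all genes tested, 2.52% had groups apart with VUF11207 lower. Mpo was under the filter and highest in VUF11207 replicate 2, and the granule gene Elane had at most 1 count in each library but VUF11207 replicate 2, where it had 7. Skeletal muscle genes summed to 5689 CPM in DMSO replicate 3 and 6015 CPM in VUF11207 replicate 1, against 420 to 1184 CPM elsewhere. Acta1 made up most of the sum in the unnumbered DMSO library, DMSO replicate 2 and VUF11207 replicate 2 (776, 363 and 1126 CPM). Ckm was at 35.97, 29.4 and 45.1 CPM and Tnnt3 at 0.148, 6.27 and 2.99 CPM there. In DMSO replicate 3 and VUF11207 replicate 1, Ckm was at 1016 and 960 CPM and Tnnt3 at 867 and 772 CPM. Both lay between in VUF11207 replicate 3 (76.0 and 61.3 CPM). Crisp1, an epididymal secretory protein, was at 3.70 and 8.22 CPM in the unnumbered DMSO library and VUF11207 replicate 2 and at 163 to 756 CPM in the others. The whole list of epididymis and testis genes summed to 15.3 and 14.1 CPM in those 2 libraries and to 168 to 765 CPM in the others. Crisp1 made up nearly all of the higher sums. Of the other tested genes of that list, Lcn5 was at 0 CPM in those 2 libraries. Acrv1 was highest in the unnumbered DMSO library (7.73 CPM). Adam28 was at 2.85 and 2.05 CPM in those 2 libraries, against 0.282 CPM in DMSO replicate 2 and 3.21 CPM in VUF11207 replicate 3. The summed smooth muscle genes were highest in the 2 libraries with most probasin. They were at 16959 CPM in the unnumbered DMSO library and 21624 CPM in VUF11207 replicate 2, against 4643 to 10523 CPM elsewhere. Myh11 and Mylk were higher in VUF11207 replicate 1 (1928 and 1580 CPM) than in the unnumbered DMSO library (1680 and 1034 CPM). The other genes of that list were highest in the 2 libraries, and 0 genes of it reached r of 0.9 with the 4 genes. The summed T cell markers, 8 of 10 above the filter, were highest in the same 2 libraries. The sums were 20.3 and 24.5 CPM there, against 5.71 to 11.4 CPM elsewhere. Of the tested markers, Cd3d, Cd3e, Cd3g, Lck and Cd2 were highest in these 2 libraries. Cd4 was highest in DMSO replicate 3, where Cd28 also exceeded its level in the unnumbered DMSO library. Cd8a was lowest in VUF11207 replicate 2 (0.268 CPM). In the T cell list, 0 genes reached r of 0.9 with the 4 genes.

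**Figure D4:**
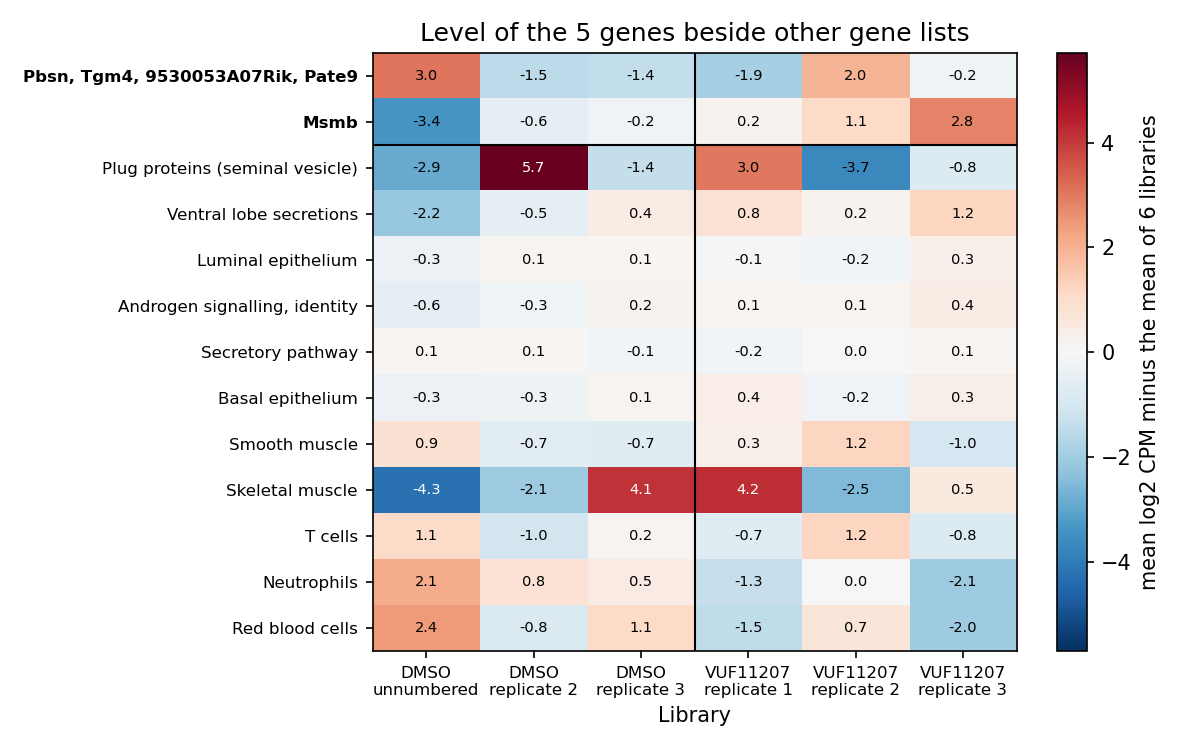
Level of the 4 co-varying genes, of Msmb and of 11 other gene lists in each library, centred on 0 over the 6 libraries, in log2 CPM averaged over the genes of a list (colour and number in each cell), with vehicle left and VUF11207 right of the vertical line. The 4 genes were high in the unnumbered DMSO library (3.05) and VUF11207 replicate 2 (1.96), where the plug proteins were low (-2.90 and -3.69).

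The substrates of Tgm4 are made in the seminal vesicle, and their levels ran opposite to the 4 co-varying genes only in part. Their r with those genes ran from -0.88 for Svs5 to -0.62 for Svs1, and none reached -0.9. Svs1, Svs3a and Svs3b were at 199, 81.9 and 81.4 CPM in DMSO replicate 3, where Tgm4 was low. In the unnumbered DMSO library, where Tgm4 was highest, they were at 452, 107 and 99.0 CPM. Svs2, a main plug protein, was at 1782, 356183 and 80929 CPM with DMSO and at 100464, 13090 and 7852 CPM with VUF11207. Counts of Tgm4 per count of Svs2 ranged from 0.00232 in DMSO replicate 2 to 9.48 in the unnumbered DMSO library. The 7 plug protein genes had 0 called in either direction and 0 with a positive log2 fold change, with a median of -2.82. The groups overlapped for each of them, and without DMSO replicate 2 the median was 4.38 with 6 of 7 positive. No other transglutaminase gene reached r of 0.9 with the 4 genes. Tgm2, the tissue transglutaminase, was at 86.04, 42.8 and 53.5 CPM with DMSO and at 70.5, 73.1 and 50.6 CPM with VUF11207. It was highest in the 2 libraries with most Tgm4, over a much narrower range. F13a1, coagulation factor XIII A, lay between 3.42 and 23.3 CPM, and Tgm3, Tgm6, Tgm7 and Epb42 were under the count filter. Of the 8 genes of that list 4 were tested and 0 passed.

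Within the PATE cluster on chromosome 9 the genes differed by library. In RefSeq coordinates Pate11 ends 50568 bases before Pate9, Pate8 begins 39315 bases after it and Pate14 begins 93791 bases after it. Pate11 followed Pate9, with 7.85, 0 and 0.0646 CPM with DMSO and 0.0676, 2.38 and 1.18 CPM with VUF11207, at a far lower level. Pate8 was lowest where Pate9 was highest, at 1.30 CPM in the unnumbered DMSO library and 76.8 CPM in DMSO replicate 3. Pate14 was at 22006 CPM in DMSO replicate 2, which held most seminal vesicle counts, and at 66.8 CPM in the unnumbered DMSO library. Pate4, also known as the seminal vesicle protein Svs7, was at 68376 CPM in DMSO replicate 2 and 534 CPM in the unnumbered DMSO library. Of 12 other PATE genes found 6 were tested, 0 passed, and 1, Pate11, had r of at least 0.9 with the mean of the 4 co-varying genes.

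Fcgbp, the gene next to 9530053A07Rik, was the member of its family list that followed it. Fcgbp begins upstream and ends 8602 bases before 9530053A07Rik, and it was at 212, 6.62 and 7.92 CPM with DMSO and 5.88, 82.5 and 19.95 CPM with VUF11207. These levels keep the order of libraries of 9530053A07Rik at a small part of its level. How reads that match both related genes were assigned is not given, so the values of Fcgbp and 9530053A07Rik are uncertain in the share they could exchange. Of the 15 genes of the list 5 passed the filter and 0 the test. Vwf, von Willebrand factor of endothelium, was at 2.67 to 10.4 CPM and the mucin gene Muc6 at 0.710 to 1.05 CPM.

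At the Tgm4 locus, Zdhhc3, a palmitoyltransferase gene on the opposite strand, overlaps the end of Tgm4 by 830 exon bases. Zdhhc3 was at 570, 78.8 and 84.03 CPM with DMSO and 79.1, 282 and 118 CPM with VUF11207, with the 2 highest libraries those of Tgm4. The strand setting of the counting is not given, so reads of both genes cannot be told apart there. Among tested genes within 200 kb, 4 of 12 had r of at least 0.9 with Tgm4, against 1 of 13 for 9530053A07Rik, 1 of 6 for Pate9 and 0 of 2 for Pbsn and 0 of 7 for Msmb. No tested neighbour of Msmb or Pbsn in that window reached this r. The 4 near Tgm4 were Zdhhc3, which shares exon bases with it, and Tmem42, Zfp445 and 1110059G10Rik, named after their values were seen. Of all genes compared, 6.40% had r of at least 0.9 with the mean of the 4 co-varying genes and 2.59% with Msmb.

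**Figure D5:**
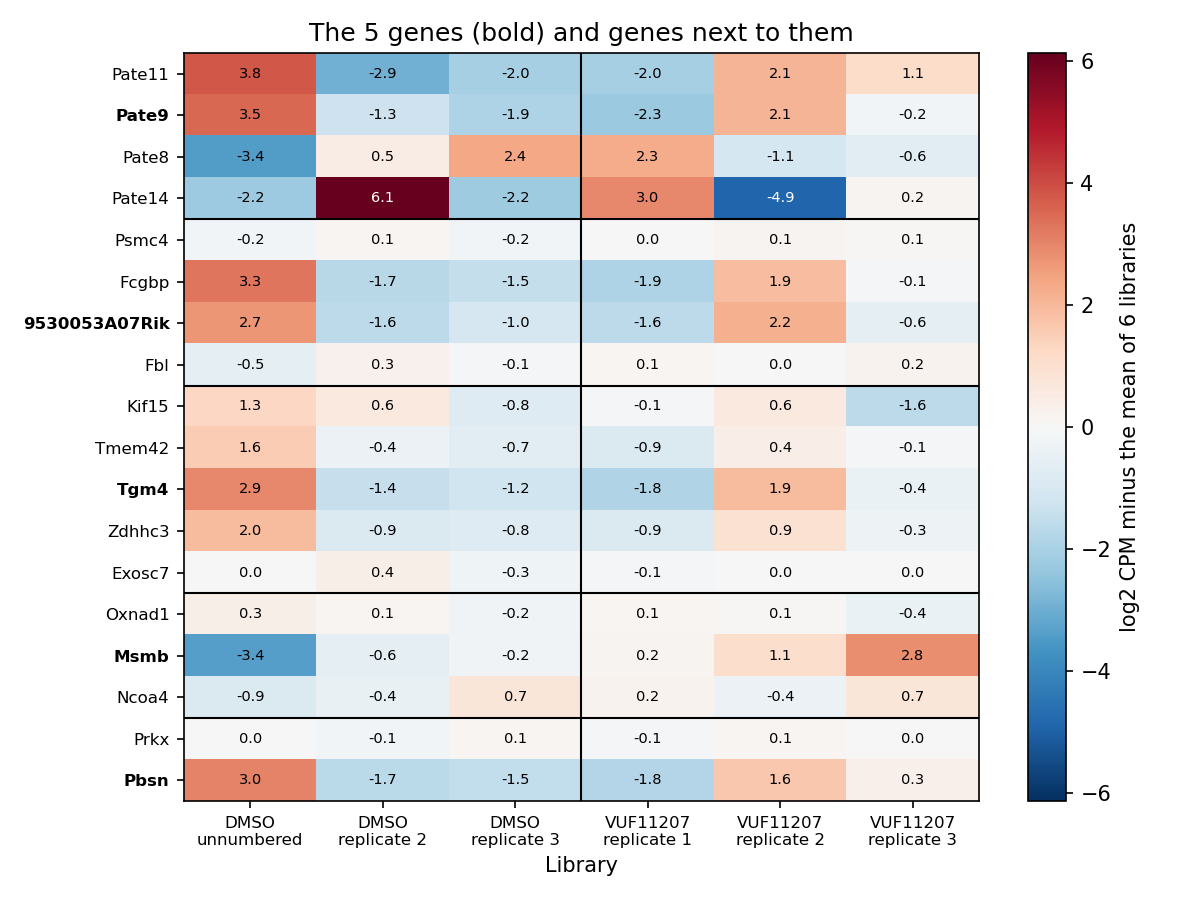
Log2 CPM, centred on 0 for each gene over the 6 libraries (colour and number in each cell) for the 5 genes, in bold, and tested genes beside them in genome order, with horizontal lines between loci. Pate11 and Fcgbp vary as Pate9 and 9530053A07Rik do, while Pate8 and Pate14 and the genes beside Msmb and Pbsn do not.

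Of 18 other lipocalin genes found 9 were tested, 0 passed and 0 had r of at least 0.9 with the 4 genes. Apod, apolipoprotein D, was at 43.4, 19.02 and 31.9 CPM with DMSO and at 22.6, 42.4 and 34.2 CPM with VUF11207, with r of 0.85. Its highest 4 libraries were in the same order as those of Pbsn, over a far narrower range. Rbp4, the plasma retinol carrier, named after its values were seen, was also highest in the unnumbered DMSO library and VUF11207 replicate 2. It was at 1.33 and 1.48 CPM there, and had only 3 to 44 counts per library. The more abundant Ptgds was lowest in the unnumbered DMSO library, with r of -0.76. Its levels were 1.26, 47.3 and 25.8 CPM with DMSO and 24.1, 6.58 and 1.49 CPM with VUF11207. Mup20, a major urinary protein, was at 0.592, 16.7 and 1331 CPM with DMSO and 1945, 4.56 and 382 CPM with VUF11207, and Lcn2, the lipocalin of neutrophils and inflamed epithelium, at 9.66, 73.9 and 145 CPM and 100.1, 28.8 and 38.8 CPM. Lcn2 and Mup20 were lowest in the 2 libraries where Pbsn was highest. Msmp, the microseminoprotein relative of Msmb, was under the filter, with at most 0.302 CPM.

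Further genes listed for the dorsal, lateral and anterior lobes, not all of them encoding secreted proteins, held both patterns and others. Of 18 found 17 were tested and 0 passed. With r of at least 0.9, 4 followed the 4 co-varying genes, 4 followed Msmb and 9 followed neither, where 6.40% and 2.59% of all genes compared reached that r. The first were C1s2, C1rb, Man1a and Fgl1, named after their values were seen. C1s2, a complement protease, was at 1869, 40.5 and 63.1 CPM with DMSO and 37.3, 822 and 128 CPM with VUF11207. Defb50, a beta-defensin, followed Msmb instead, at 157, 375 and 569 CPM with DMSO and 852, 1528 and 3413 CPM with VUF11207. Spinkl and Ceacam10 followed neither and were highest in DMSO replicate 2, at 28493 and 27216 CPM, and with 9530003J23Rik they are the 3 genes that also stand in the seminal vesicle list. One gene of the ventral list, the gasdermin gene Gsdma, also followed the 4, at 718, 112 and 38.2 CPM with DMSO and 47.4, 416 and 82.1 CPM with VUF11207.

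Androgen signalling and prostate identity genes had 24 of 24 members tested, 0 called, 13 with a positive log2 fold change and a median of 0.15. Acsl3, an acyl-CoA synthetase gene with r of at least 0.9 with the 4 genes, named after its values were seen, was at 121, 13.7 and 14.9 CPM with DMSO and 14.2, 63.5 and 23.5 CPM with VUF11207. Groups were apart with VUF11207 higher for 3 of the 24, Hoxb13, Mme and Azgp1, beside 3.05% of all genes tested. Hoxb13, the homeobox gene of the posterior body and prostate, was at 182 to 378 CPM with DMSO and 384 to 805 CPM with VUF11207. Its nearest libraries thus lay close together, and it did not pass. Of the 38 secretory pathway genes tested 0 passed, 5 had r of at least 0.9 with the 4 genes and 3, Canx, Xbp1 and Creb3l2, named after their values were seen, had r of -0.9 or below. Over all genes compared these shares were 6.40% and 5.95%. Hsp90b1, the endoplasmic reticulum chaperone GRP94, was at 2690, 740 and 749 CPM with DMSO and 639, 1897 and 741 CPM with VUF11207. Its neighbour in function Hspa5, the chaperone BiP, was at 612 to 1153 CPM and lowest in the unnumbered DMSO library.

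The genes most like the mean of all 5 were Psmc6, Adarb2, Hpf1, Eloc, Gpx1, Rnase1, Polr2h, Mrpl33, Anxa3 and Gbp3, with Pearson r of 0.986 to 0.995 over 6 libraries among 11558 genes compared. That mean joins opposing patterns, and 0 of these 10 genes were among the 10 most like the 4 genes without Msmb, a pattern set after the values were seen. The latter were Slc30a2, Chn2, Fcgbp, Glb1l3, Pus3, C1s2, Grin2d, Trnt1, Rnf149 and Fgl1, with r of 0.997 to 0.9995. Slc30a2, a zinc transporter, was at 157, 10.9 and 11.7 CPM with DMSO and 9.16, 76.9 and 22.3 CPM with VUF11207. Most like Msmb were Gipc2, G6pc2, Rnf130, Snorc, Rhod, Taf9b, Eid1, Wfdc3, Defb50 and Psmd5, with r of 0.978 to 0.994. Of all genes compared, 740 genes (6.40%) had r of at least 0.9 with the 4 genes and 299 (2.59%) with Msmb. None of the 30 genes named here passed the comparison with vehicle.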

How the data were processed

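Prostate RNA of 6 samples was sequenced, with total RNA extracted by TRIzol and VAHTS Universal V6 libraries per the labels' protocols. The authors deposited raw read counts, whole numbers with 1 row for each gene symbol; fastp, HISAT2, HTSeq and mm10 are named in the submitters' processing notes, while annotation, strand setting and multi-mapping rule were not given in the sources used here. The table held 18697 genes, and 5 of its 6 columns were identical to the samples' own files. The column without a file entered the DMSO group unnumbered. Nothing says that libraries came from separate mice, so p-values measure the spread between samples, which may be technical.

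Counts were filtered by filterByExpr, TMM-scaled and compared by edgeR 4.0.16's quasi-likelihood test with robust dispersion, two-sided, over 13753 genes, and called at a Benjamini-Hochberg adjusted p under 0.05. An exact permutation test of 3 against 3 libraries cannot go below 0.1 and was not used. Log2 CPM used a prior count of 2. The 28 gene lists held 318 entries, 304 matched on symbol and 3 more on a synonym. The members and lists were chosen with earlier results of these data known. Genes named were the members, up to 4 per list by mean CPM, and the 10 most like the members by Pearson r with a mean log2 CPM of at least 1; others are said to be named after their values were seen, and some named by the rule are not reported here. Alternatives were DESeq2 1.42.0, limma 3.58.1 voom, other scalings and filters, the replicate block and leaving out libraries. R 4.3.3 and Python 3.11.15 were used.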

Additional observations from a re-analysis of the deposited data

How the results depend on the processing

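None of the 5 genes passed the threshold under any of the 16 alternatives that gave an adjusted p, whose lowest was 0.300 for Msmb with library totals in place of TMM (edgeR). DESeq2 gave no adjusted p for 9530053A07Rik. The value of Msmb kept its direction in all 16, and those of Tgm4 and Pate9 in 13, of Pbsn in 12 and of 9530053A07Rik in 11. As the groups of Msmb did not overlap, its kept direction adds little. With 1 library left out, log2 fold changes ran from -1.96 to 2.20 for Pbsn, from -2.45 to 2.01 for Tgm4, from -2.32 to 2.16 for 9530053A07Rik, from -2.86 to 2.38 for Pate9 and from 1.57 to 3.16 for Msmb. The limma voom values of Pbsn and 9530053A07Rik were 0.19 and 0.0588, and the cause was not tested. Without VUF11207 replicate 1, 9530053A07Rik was at 0.11. The number of genes called was 0 in edgeR, 4 with DESeq2 and 3 with library totals without TMM, a scaling that shifted the median over all genes by 0.18 (log2). Replicate numbers 2 and 3 occur in both groups, and the labels do not say that they mark a shared animal or day. Same-numbered libraries deviated from their group means with r of -0.33 and 0.0525 across genes. With the number as a block over these 4 libraries, 0 genes were called and the log2 fold changes were 2.56 for Pbsn, 2.09 for Tgm4, 2.11 for 9530053A07Rik, 2.56 for Pate9 and 2.36 for Msmb; this fit leaves out the unnumbered DMSO library and VUF11207 replicate 1. The column names carry numbers of their own that each occur in both groups, and there the unnumbered DMSO library shares its number with VUF11207 replicate 1. That pair had r of -0.59, and no library correlated best with its own number. With the column number as a block over all 6 libraries, a fit added after seeing the data, 0 genes were called and the values were 0.93, 0.32, 0.22, 0.89 and 2.75 in the same order. Without the 2 libraries with most seminal vesicle counts, a choice made after seeing the data, the values were -0.94, -0.78, -0.43, -1.16 and 3.28 in the same order. As plain shares of all counts, Pbsn ranged 81.3-fold, Tgm4 63.9-fold, 9530053A07Rik 62.6-fold, Pate9 85.8-fold and Msmb 62.9-fold, with DMSO replicate 2 the lowest for all but Msmb. Of the 10 genes most like all 5, 0 were kept with library totals and with Spearman rho and 0 to 4 with 1 library left out. Of those most like the 4 without Msmb, 7 were kept with library totals, 1 with Spearman rho and 4 to 7 with 1 library left out. Counting error on these shares was at most 0.0130 percentage points on either side.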
